A study of Homo sapiens with 12 samples.

Results

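The comparison described here is that between MCF10AT cells expressing the human prolactin receptor pair hPRLrL/hPRLrI and MCF10AT cells in which the I-tail of hPRLrI was deleted, both untreated and both starved of serum for 24 h. MCF10AT is a human breast epithelial line, a derivative of the MCF10A line that carries an activated HRAS gene. The libraries were chosen by their labels: 3 untreated libraries with the intact receptor and 3 with the deleted I-tail, 6 of the 12 libraries of the series. The other 6 libraries hold the same cells given 250 ng/ml prolactin (PRL) for 2 h after the same starvation, and enter the fit and a comparison of their own. All 12 libraries share the MCF10AT background, the starvation in DMEM/F12 with 0.1% bovine serum albumin, and the polyA selection of the RNA. The labels do not say whether each cell line is a clone or a pool, nor how the receptors were introduced. Gene expression was given as counts of reads per gene. The library titles run from MCF_1 to MCF_12, and each set of 4 consecutive titles, called a title run here, holds 1 library of each of the 4 groups.

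The prolactin receptor is a cytokine receptor without a kinase of its own. Prolactin binds a dimer of receptors, the kinase JAK2 bound to their intracellular parts is activated, and STAT5, Ras-MAPK and PI3K signals follow. Splicing yields a long and an intermediate form of the human receptor that share their extracellular part and differ in the end of the intracellular part, and the I-tail is the end particular to the intermediate form. In the breast, luminal and basal epithelial cells are told apart by their keratins and are held together by E-cadherin junctions, desmosomes and tight junctions.

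The 6 untreated libraries held 37086652 to 57324865 counts, and 17677 genes passed the filter on low counts. In the intact libraries the range of genes with a count was wide, with 19905 in run 2 against 25200 in run 1 and 23836 in run 3, while the deleted libraries had 24966, 23119 and 23895. Base composition also moved with the comparison. Across 17050 genes, the log2 ratio of the deleted to the intact library had a Spearman correlation with GC content of 0.14 in run 1, -0.32 in run 2 and -0.29 in run 3. The 3 untreated pairs of same-run libraries deviated together from their group means, and the title run was kept as a block in the fit. The labels speak of biological replicates without saying how the cultures were set up, so the p-values measure the spread between these libraries.

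PRLR, the gene of the altered receptor, was abundant in every library. Its level was 3503, 3220.4 and 3493 CPM (counts scaled to library size, per 1e6) in the intact libraries of runs 1, 2 and 3 and 3632, 3455 and 3655 CPM in the deleted libraries. The deleted library was the higher one in 3 of 3 runs, but the groups overlapped and the log2 fold change was 0.07 ± 0.13 (SE, n = 3 a group), with an adjusted p of 0.912 by edgeR's quasi-likelihood test. With an offset for GC content and length its direction turned, to -0.09. Counts per gene do not separate the long from the intermediate form or show the I-tail, so they do not check the deletion.

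Out of 17677 genes tested, 1 passed an adjusted p of 0.05 as higher in the deleted cells (0.00566% of the genes tested) and 0 passed as lower (0%) by edgeR's quasi-likelihood test. At an unadjusted p under 0.05 the same test gave 525 higher and 376 lower genes. DESeq2 called 11 higher and 3 lower, and limma-voom with quality weights 13 and 4. Below, a call or an adjusted p is that of edgeR unless another tool is named. The 1 gene was EWSAT1, a long noncoding RNA first described in Ewing sarcoma. In the intact libraries of runs 1, 2 and 3 EWSAT1 stood at 0.672, 0.248 and 0.382 CPM, and in the deleted libraries at 4.02, 3.89 and 3.15 CPM. The lowest deleted library was above the highest intact one, and the gene rose 8.40-fold. On the log2 scale the rise was 3.07 ± 0.31 (SE, n = 3 a group), with a 95% interval of 2.40 to 3.74 and an adjusted p of 0.00121 by edgeR. The log2 ratios within runs 1, 2 and 3 were 2.498, 3.74 and 2.90. The call was lost without the libraries of title run 1 (log2 3.40, adjusted p = 0.0899), without those of run 3 (3.06, adjusted p = 0.741), and with the 6 untreated libraries alone without the run block (adjusted p = 0.291). It was kept in the other 27 of 30 alternatives. In the PRL-treated libraries, which the untreated contrast does not use, EWSAT1 was at 0.453, 0.418 and 0.414 CPM in intact and 3.33, 4.31 and 2.95 CPM in deleted cells. There it also rose, by 3.03 ± 0.32 on the log2 scale with an adjusted p of 0.00178, and the 2 rises differed by -0.04 ± 0.45.

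EWSAT1 lies on chromosome 15 from 69072926 to 69095820 on the plus strand (GRCh38, GENCODE 29) and overlaps no other tested gene. Its tested neighbours did not pass the test. NOX5, an NADPH oxidase gene 10183 bases before it, had a log2 fold change of -0.60 ± 0.52 (adjusted p = 0.828), and GLCE, an enzyme gene of heparan sulfate synthesis 64764 bases after it, -0.12 ± 0.18 (adjusted p = 0.895). The 250 bases before the RefSeq start of EWSAT1 are shown because it is the gene that passed the test. They span chr15:69080600-69080849 on the plus strand (GRCh38.p14), inside the GENCODE gene. The capitals mark the letters CACCTG read on either strand (CAGGTG on the reverse), the core of the E-box bound by the SNAI and ZEB repressors.
EWSAT1: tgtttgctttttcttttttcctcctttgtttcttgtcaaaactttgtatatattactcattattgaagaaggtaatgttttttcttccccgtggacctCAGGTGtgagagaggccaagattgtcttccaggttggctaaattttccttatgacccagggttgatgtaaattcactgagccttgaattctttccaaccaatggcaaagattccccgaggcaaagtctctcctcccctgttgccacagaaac
The window holds 1 such match, which starts 152 bases before the RefSeq start, and no match to TTCNNNGAA, the core of the STAT5 motif. Its GC content is 41.2%. Of 27305 RefSeq windows of the same length, 17.5% hold CACCTG and 6.78% hold TTCNNNGAA, on either strand.

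**Figure D1:**
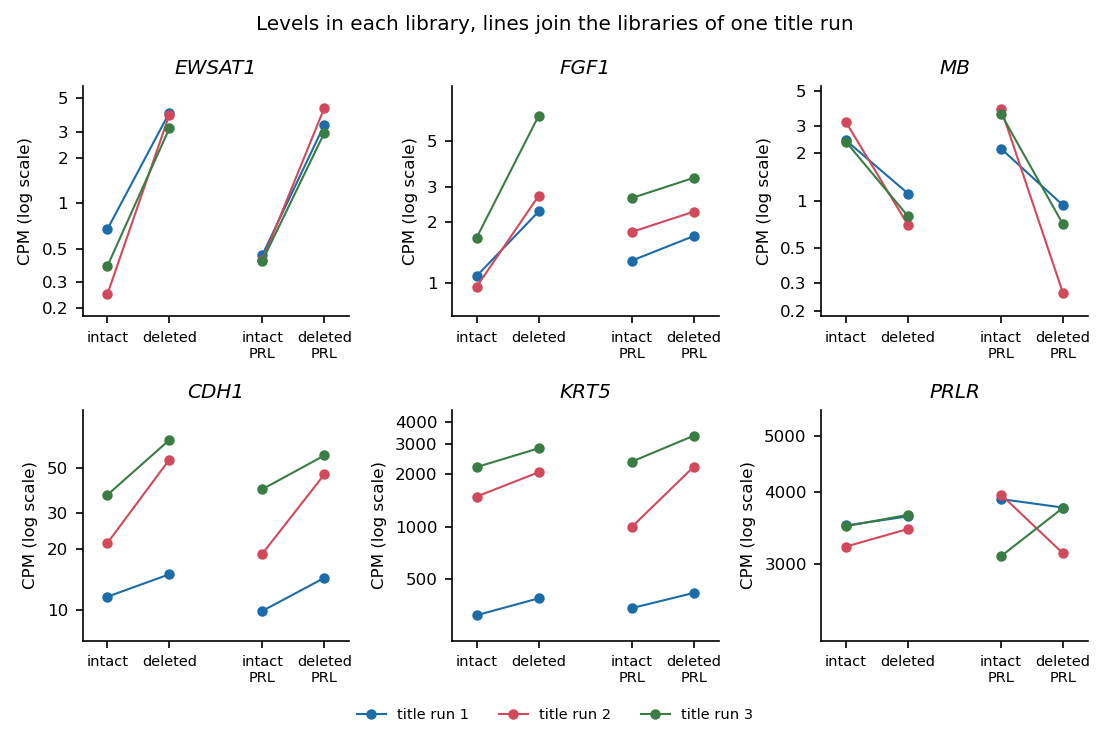
Level in CPM on a log axis of 6 genes in all 12 libraries, intact and deleted, untreated on the left and PRL-treated on the right of each panel; each point is 1 library and lines join the libraries of 1 title run. EWSAT1 is higher and MB lower in the deleted library of every run, CDH1 and KRT5 differ more between runs than between receptors, and PRLR differs little between libraries on this axis.

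The genes next in rank did not pass the test, and most of them were chosen for description after their values were seen. ENSG00000287458, a gene without a symbol in the tables used and without an entry in GENCODE 29, was at 1.72, 1.43 and 3.07 CPM in intact and 0.0923, 0.401 and 0.295 CPM in deleted libraries. The groups did not overlap, and the log2 fold change was -2.92 ± 0.44 (adjusted p = 0.0776). It was called lower in 8 of 30 alternatives. GIMAP6, a GTPase gene best known from lymphocytes, stood at 0.371, 0.138 and 0.0694 CPM against 2.12, 1.61 and 1.45 CPM. Its log2 fold change was 3.23 ± 0.51 (adjusted p = 0.0825), and it was called in 6 of 30 alternatives. FGF1, a ligand of all fibroblast growth factor receptors, was at 1.09, 0.965 and 1.68 CPM in the intact and 2.26, 2.704 and 6.70 CPM in the deleted libraries. Here too the groups did not overlap, but the deleted library of run 3 was far above the other 5, and the log2 fold change of 1.53 ± 0.25 had an adjusted p of 0.0968.

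S100A14, a calcium-binding protein of epithelia, was at 22.7, 57.2 and 87.3 CPM in intact and 32.3, 109 and 146 CPM in deleted libraries. The deleted library was the higher one in each run and the groups overlapped, and the log2 fold change was 0.73 ± 0.13 (adjusted p = 0.208). DESeq2 called it (adjusted p = 0.00217), as did limma-voom (0.00753). The same order within runs held for TMC4, a member of the transmembrane channel-like family, with 0.74 ± 0.13 (adjusted p = 0.198), and for C1orf116 with 0.98 ± 0.19 (adjusted p = 0.258).

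At an unadjusted p under 0.05, 525 genes were higher (2.97%) and 376 lower (2.13%), in all 5.1% of those tested. In 3098 genes the deleted library was the higher one in 3 of 3 runs (17.5%) and in 2200 the lower one in 3 of 3 (12.4%). All 3 deleted libraries lay above all 3 intact ones for 633 genes (3.58%) and below them for 338 (1.91%). The genes tested had a median log2 fold change of 0.04, and the 95% intervals reached a median of 0.44 to either side.

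**Figure D2:**
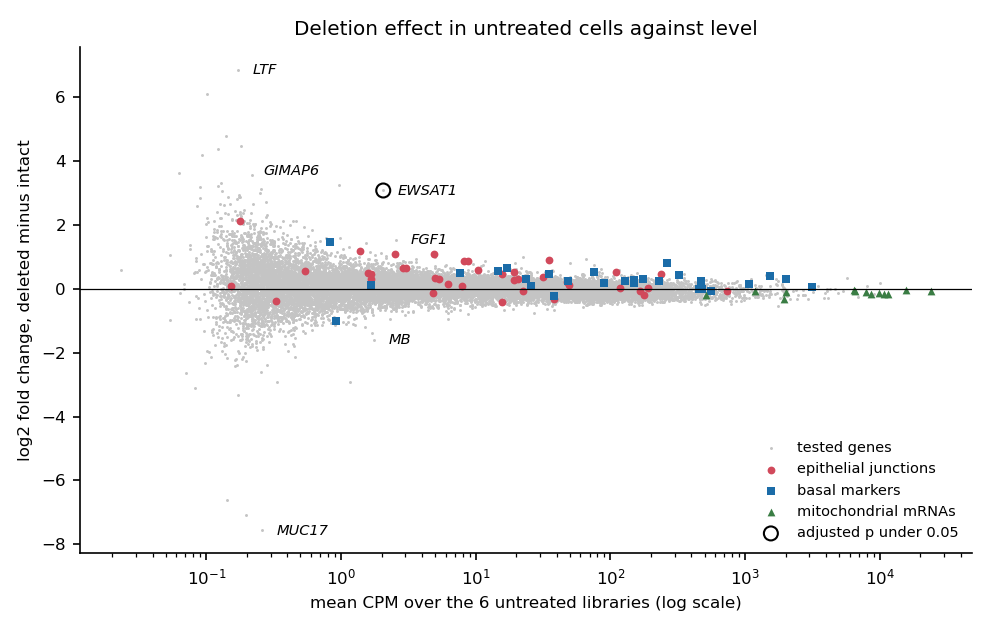
Log2 fold change, deleted minus intact, in untreated cells (vertical) against the mean CPM over the 6 untreated libraries on a log axis (horizontal), with 1 point a gene for 17677 tested genes and the junction, basal and mitochondrial lists in colour. The circled point is EWSAT1, the 1 gene that passed an adjusted p of 0.05; LTF and MUC17 have 0 counts in 1 of the groups, so their plotted folds depend on the fit's prior count.

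The genes without overlap between the groups, with a symbol and a mean of at least 1 CPM were ranked by p in each direction, and the 10 of lowest p in each are named. Apart from EWSAT1 none of them was called in edgeR's fit of the untreated contrast, and FGF1 is described above. DESeq2 called FGF1 (adjusted p = 0.000126), and limma-voom called FGF1 (0.00312), ERBB3 (0.0333), MB (0.0368) and AHNAK (0.0492). With no count filter edgeR called FGF1, MB, RPH3AL, CD320, TIMP3 and SEMA5B, without title run 2 FGF1, and in the average over untreated and PRL cells MB. ERBB3, a receptor of the EGF receptor family that binds neuregulins, stood at 16.6, 12.7 and 13.4 CPM in intact and 19.8, 20.6 and 24.9 CPM in deleted libraries, a log2 fold change of 0.61 ± 0.14 (adjusted p = 0.607). The semaphorins SEMA5B and SEMA5A, guidance molecules of the cell surface, had log2 fold changes of 1.42 ± 0.39 and 1.30 ± 0.39 at means of 1.54 and 1.15 CPM. HSPBAP1, a partner of a small heat shock protein, had 1.10 ± 0.31. SEMA5B and HSPBAP1 lie on the same stretch of chromosome 3, while SLC49A4, a gene between them, had -0.03 ± 0.14. TIMP3, an inhibitor of matrix metalloproteinases, was at 121, 69.2 and 90.3 CPM against 154, 122 and 138 CPM, a log2 fold change of 0.59 ± 0.17. GLUL, glutamine synthetase, had 0.43 ± 0.12, the potassium channel subunit gene KCNS3 0.95 ± 0.27 and the scaffold protein gene AHNAK 0.43 ± 0.13. GLUL, SEMA5A, SEMA5B, HSPBAP1, TIMP3, KCNS3 and AHNAK all had an adjusted p of 0.815.

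Among those lower in the deleted cells was MB, the gene of the oxygen-binding protein myoglobin. MB lies on chromosome 22 from 35606764 to 35637951 (minus strand, GRCh38) and stood at 2.41, 3.14 and 2.36 CPM in the intact and 1.11, 0.697 and 0.794 CPM in the deleted libraries, with a log2 fold change of -1.61 ± 0.38 (adjusted p = 0.815). In the PRL libraries MB was at 2.14, 3.83 and 3.56 CPM against 0.934, 0.257 and 0.706 CPM, a log2 fold change of -2.32 ± 0.40 (adjusted p = 0.153). RPH3AL, an effector of Rab proteins in exocytosis, was at 8.72, 14.1 and 10.97 CPM against 7.04, 5.05 and 7.17 CPM and had -0.79 ± 0.23. LAPTM5, a lysosomal membrane protein gene, had -0.61 ± 0.19, and CD320, the receptor for transcobalamin-bound vitamin B12, -0.59 ± 0.20. MOXD1, which encodes a monooxygenase-like protein, had -1.12 ± 0.37 in untreated and 0.50 in PRL cells. The log2 fold changes of ACTL10, CCDC106 and SMIM30 were -0.60 ± 0.19, -0.48 ± 0.17 and -0.56 ± 0.20. RPL23AP57, a pseudogene that may share reads with its parent, had -1.20 ± 0.34. HDAC4-AS1 had -0.84 ± 0.26; it overlaps HDAC4 on the opposite strand, and with no source giving whether strand was used in counting, its reads cannot be told from those of HDAC4, at -0.01 ± 0.12. All 10 genes had an adjusted p of 0.815.

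Some genes had counts in 1 of the groups alone. A gene was listed when all 3 libraries of a group had 0 counts and the other group had at least 1 count in each library and 10 in sum. This gave 32 genes without a count in the deleted libraries, of which 13 also had 0 counts in all deleted PRL libraries. In the other direction 53 genes had no count in the intact libraries, of which 16 also had 0 in all intact PRL libraries. The intact library of run 2 had a count in 19905 genes, against 25200 and 23836 in those of runs 1 and 3. The deleted libraries of runs 1, 2 and 3 had 24966, 23119 and 23895. The part of this low number of detected genes in the difference between 53 and 32 was not tested. MUC17, a membrane-bound mucin, had 22, 17 and 33 counts in the intact and 0 in each deleted library. Against a floor of 3 counts over the group it was at least 23.6-fold lower, and its adjusted p was 0.581 by edgeR, 0.00411 by DESeq2 and 0.00103 by limma-voom. RNF17 had 25, 12 and 16 counts in the intact libraries and was at least 17.4-fold lower. LTF, the milk and secretory protein lactoferrin, had 0 counts in the intact libraries and 13, 22 and 12 in the deleted ones, at least 15.9-fold higher (adjusted p = 0.815 by edgeR and 0.0105 by limma-voom). These 3 genes were chosen after their values were seen. In the PRL libraries MUC17 and RNF17 again had 0 counts in all deleted and LTF in all intact libraries.

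Of 38 tested epithelial junction genes, 30 had a fitted value above 0 and 8 below, and 0 passed the adjusted test by edgeR. DESeq2 called 4 of them higher (CDH1, ESRP1, CLDN1 and CDH3), limma-voom 2 (CDH1 and ESRP1), and edgeR's average over untreated and PRL cells 3 (CDH1, ESRP1 and CDH3). With no count filter edgeR's calls included CDH1 (adjusted p = 9.93e-06), CLDN1 (0.00828) and ESRP1 (0.0085). The list holds cadherins, claudins, desmosomal proteins and their regulators. Its median log2 fold change was 0.33, against 0.04 for all tested genes, and 0.25, 0.47 and 0.34 in runs 1, 2 and 3. In 19 of 38 members the deleted library was the higher one in 3 of 3 runs, 50% against 17.5% of all tested genes. The 1 member lower in 3 of 3 runs was CLDN4, a claudin of tight junctions, with -0.33 ± 0.16. All 3 deleted libraries lay above all 3 intact ones for 1 of the 38 members and below them for 1. Of all tested genes 3.58% and 1.91% did so. At an unadjusted p under 0.05, 13 members (34.2%) were higher and 0 lower, beside 2.97% and 2.13% of all genes. Without the run block that count was 0 and the median 0.36. Leaving out run 1, 2 or 3 gave 11, 14 and 6 such members and medians of 0.37, 0.22 and 0.30. With an offset for GC content and length, 15 members passed that unadjusted level and the median was again 0.33. The members had a median GC content of 52.9%, against 49.4% for all tested genes.

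CDH1, E-cadherin, the main adhesion protein between epithelial cells, was at 11.6, 21.3 and 36.8 CPM in the intact libraries of runs 1, 2 and 3 and 14.98, 55.0 and 68.7 CPM in the deleted ones. The deleted library was higher in each run, but the intact library of run 3 was above the deleted library of run 1, so the groups overlapped. Its log2 fold change was 0.89 ± 0.17 (adjusted p = 0.282), with 0.37, 1.37 and 0.90 in the 3 runs. The gene lies on chromosome 16 from 68737225 to 68835548 on the plus strand (GRCh38). CDH1 was called in 4 of 30 alternatives. CDH3, P-cadherin, which lies before CDH1 on chromosome 16, stood at 44.7, 80.1 and 142 CPM against 57.1, 130.3 and 205 CPM and had 0.53 ± 0.12 (adjusted p = 0.581). ESRP1, a splicing regulator of epithelial isoforms, had 2.92, 4.58 and 9.70 CPM against 4.22, 9.93 and 18.1 CPM and 0.86 ± 0.17 (adjusted p = 0.312). CLDN1, a claudin of tight junctions, had 2.06, 6.21 and 10.1 CPM against 3.39, 13.2 and 17.3 CPM and 0.86 ± 0.18 (adjusted p = 0.368). All 4 genes were lowest in the intact library of run 1 and highest in the deleted library of run 3. In bulk RNA, a different share of cells that express such a gene and a different level in each cell cannot be told apart.

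RefSeq windows of 250 bases before the start were found for 22 of the 38 junction members. CDH1, CDH3 and ESRP1 had none. Of the 22 windows, 9 held CACCTG on either strand (40.9%), against 16.2% of 11869 windows of tested genes. The 9 members with a match had a median log2 fold change of 0.47 and the 13 without one 0.16. In the basal list described below, 5 of 16 windows held CACCTG (31.2%). There the order of the medians was the opposite, with 0.23 for 5 members with a match and 0.28 for 11 without. These are descriptions of letters in a fixed window, from genes that were not chosen at random. Shown are CLDN1, 1 of the 4 members with the smallest p, which holds no match, and DSP and CRB3, the 2 members higher in 3 of 3 runs with more than 1 match. DSP encodes desmoplakin, which ties desmosomes to keratin, and CRB3 a protein of the apical Crumbs complex. The CLDN1 window is chr3:190322447-190322696 on the minus strand, DSP chr6:7541421-7541670 and CRB3 chr19:6464021-6464270, both on the plus strand (GRCh38.p14), and capitals mark CACCTG or CAGGTG.
CLDN1: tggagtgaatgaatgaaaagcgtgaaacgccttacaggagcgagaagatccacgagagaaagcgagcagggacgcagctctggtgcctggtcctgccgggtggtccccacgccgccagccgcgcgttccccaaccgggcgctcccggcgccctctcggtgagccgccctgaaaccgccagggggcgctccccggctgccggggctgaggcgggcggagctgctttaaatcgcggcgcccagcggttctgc
DSP: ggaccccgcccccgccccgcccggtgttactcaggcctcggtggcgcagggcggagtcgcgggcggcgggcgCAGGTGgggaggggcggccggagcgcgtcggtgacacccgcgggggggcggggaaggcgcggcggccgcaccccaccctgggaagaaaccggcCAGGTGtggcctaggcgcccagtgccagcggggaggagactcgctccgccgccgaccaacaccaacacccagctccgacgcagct
CRB3: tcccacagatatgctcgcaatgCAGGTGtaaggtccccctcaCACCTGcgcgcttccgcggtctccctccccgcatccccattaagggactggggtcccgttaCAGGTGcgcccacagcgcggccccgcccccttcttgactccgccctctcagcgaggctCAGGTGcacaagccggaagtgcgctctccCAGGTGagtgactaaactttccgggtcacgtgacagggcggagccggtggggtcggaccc
The CLDN1 window holds 0 matches, the DSP window 2 and the CRB3 window 5. In the libraries DSP had a log2 fold change of 0.47 ± 0.16 (adjusted p = 0.815) and CRB3 0.64 ± 0.26 (adjusted p = 0.815). CRB3 overlaps SLC25A23 and DENND1C on the opposite strand, whose reads may be split with it.

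**Figure D3:**
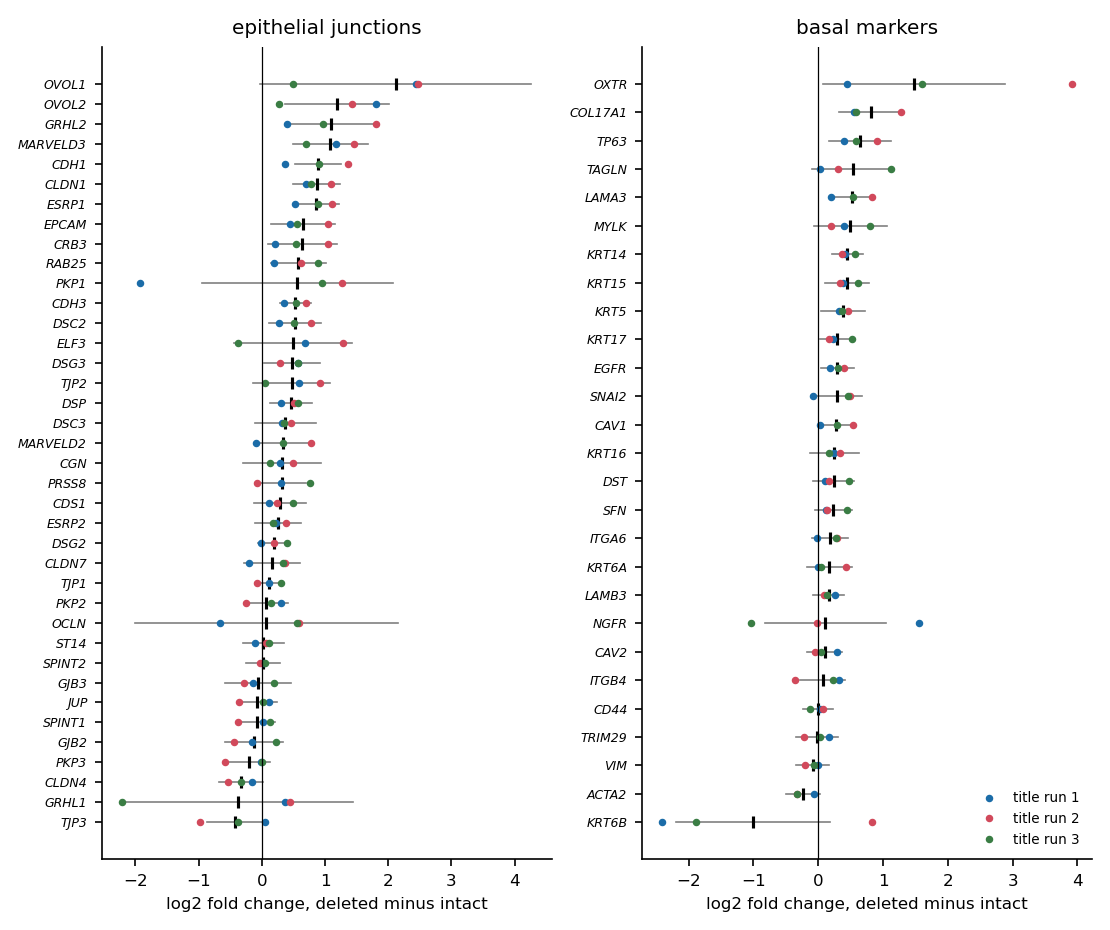
Log2 fold change, deleted minus intact, in untreated cells (horizontal) for the tested members of the epithelial junction list (left) and, with 1 member not drawn, the basal list (right). Coloured points are the ratios within title runs 1, 2 and 3, bars the fitted value and lines its 95% interval. Of all tested members, 30 of 38 and 23 of 28 are above 0. EdgeR's fit of all 12 libraries with the count filter called 0 of them in untreated cells. DESeq2 called 4 junction and 0 basal members.

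Basal genes, which mark the outer cells of the mammary epithelium, had a median log2 fold change of 0.25 over 28 tested members and 0.19, 0.30 and 0.30 in the 3 runs. Of these, 18 were higher in the deleted library of 3 of 3 runs and 2, ACTA2 and VIM, lower. The groups did not overlap for 2 members higher and 0 lower, beside 3.58% and 1.91% of all tested genes. At an unadjusted p under 0.05, 10 (35.7%) were higher and 0 lower, and edgeR, DESeq2 and limma-voom each called 0. In the average over untreated and PRL cells edgeR called 1 member higher, KRT14. With no count filter its calls included COL17A1 (adjusted p = 2.99e-05) and TP63 (0.0449), both higher. Without title run 2 it called 1 member lower, KRT6B (log2 -2.32, adjusted p = 0.0311), which was chosen after its values were seen. The number of members higher at an unadjusted p under 0.05 was 0 without the run block and 3 without run 3. It was 5 without the intact untreated library of run 3 and 12 with the GC and length offset. LAMA3, a chain of the laminin that anchors basal cells, was at 57.5, 43.9 and 86.3 CPM in intact and 66.1, 77.7 and 125 CPM in deleted libraries and had a log2 fold change of 0.52 ± 0.13 (adjusted p = 0.815). COL17A1, a collagen of hemidesmosomes, was at 86.7, 153 and 335 CPM against 127, 371 and 499 CPM and had 0.81 ± 0.23 (adjusted p = 0.815). TP63, the transcription factor that marks basal cells, had 0.65 ± 0.23 (adjusted p = 0.815).

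Basal keratins differed far more between runs than between receptors. KRT5 was at 309.9, 1490.3 and 2200.2 CPM in the intact libraries of runs 1, 2 and 3 and 387, 2056 and 2822 CPM in the deleted ones, so each receptor had its low value in run 1. The log2 fold changes of KRT5, KRT14, KRT15 and KRT17 were 0.39 ± 0.16, 0.45 ± 0.11, 0.44 ± 0.16 and 0.30 ± 0.13, each higher in 3 of 3 runs and each with an adjusted p of 0.815. Not every keratin rose. The lowest value of the keratin list, -1.01, was also the lowest of the basal list, and KRT6B was called lower without title run 2. The keratin list as a whole, with 17 tested members, had a median of -0.06, with 6 members higher and 4 lower in 3 of 3 runs. Its median crossed 0 in 4 of 15 alternatives of scaling, block and libraries left out.

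Luminal markers, of the inner cells that can secrete milk, had values on both sides of 0. Their median was -0.06 over 20 tested members, with 3 higher and 6 lower in 3 of 3 runs. The 3 members higher in every run were ERBB3, LTF and ALDH1A3, an aldehyde dehydrogenase of luminal progenitors, which had 0.69 ± 0.26. AREG, a ligand of the EGF receptor, was lower in each run, at 59.7, 90.5 and 92.4 CPM against 50.01, 81.0 and 49.8 CPM and -0.45 ± 0.19 (adjusted p = 0.815). Among the S100 proteins, small calcium-binding proteins, the median was -0.10 over 15 members, where S100A14 had 0.73 ± 0.13, S100P -0.57 ± 0.27, S100A2 0.26 ± 0.12 and S100A6 -0.16 ± 0.12.

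Basement membrane and matrix genes had a median of 0.13 over 36 members, with 10 higher and 2 lower in 3 of 3 runs. Besides LAMA3, the list holds tenascin TNC (0.25 ± 0.14) and the transmembrane collagen gene COL13A1 (-0.91 ± 0.40). Integrins and adhesion adaptors had a median of 0.03 over 33 members. TNS3, a tensin of focal adhesions, had 0.34 ± 0.11, the integrin subunits ITGB6 and ITGB8 0.70 ± 0.23 and 0.31 ± 0.15, and FERMT1, a kindlin that activates integrins, 0.36 ± 0.13. Of the matrix protease list, with a median of -0.02 over 31 members, 7 were lower in 3 of 3 runs (22.6%, beside 12.4% of all genes) and 5 (16.1%) were lower at an unadjusted p under 0.05, beside 2.13%. TIMP1, PLAUR and SERPINE2 were among both. TIMP1, a metalloproteinase inhibitor, was at 1203, 3633 and 1599 CPM against 1141, 1918 and 1064 CPM (-0.53 ± 0.17), the opposite direction to TIMP3. PLAUR, the urokinase receptor, had -0.35 ± 0.12 and the protease inhibitor gene SERPINE2 -0.46 ± 0.17. EdgeR with its count filter, DESeq2 and limma-voom called 0 members of the protease list. With no count filter edgeR called TIMP1 lower (adjusted p = 0.0329) and TIMP3 higher (0.032).

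The mRNAs of the mitochondrial genome, which encode subunits of the respiratory chain and ATP synthase, took 13.3%, 10.5% and 10.0% of the counts in the intact libraries of runs 1, 2 and 3. In the deleted libraries their share was 12.6%, 11.04% and 9.34%. The means were 11.3% ± 1.77 and 10.98% ± 1.61 (SD, n = 3 a group). The deleted library was the lower one in runs 1 and 3 and the higher one in run 2. No test is given, since an exact permutation of 3 against 3 cannot go below a p of 0.1. In the fit all 13 mRNAs had a log2 fold change below 0, with a median of -0.11, but with library size alone in place of TMM scaling 4 of them were above 0 and the median was -0.04. In 10 of 13 the deleted library was the lower one in 3 of 3 runs. By edgeR none passed the adjusted test, and none an unadjusted p under 0.05. At that unadjusted level 7 were lower by limma-voom, 0 by DESeq2 and 8 in edgeR's average over untreated and PRL cells, with 0 called in each.

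The lowest value belonged to MT-ND3, a subunit of complex I, at 1672, 3099.9 and 1809 CPM against 1649, 1948 and 1481 CPM and -0.32 ± 0.17 (adjusted p = 0.815). Its intact library of run 2 was far above the other 5. The ATP synthase genes MT-ATP8 and MT-ATP6 had -0.21 ± 0.14 and -0.09 ± 0.12; their reading frames overlap, so reads may be split between them. For complex IV the values were -0.06 ± 0.13 for MT-CO1, -0.18 ± 0.14 for MT-CO2 and -0.15 ± 0.13 for MT-CO3. MT-CYB of complex III had -0.16 ± 0.13. The other complex I genes ran from -0.18 for MT-ND1 over -0.11 for MT-ND6 and -0.09 for MT-ND2 to -0.06 for MT-ND4L, -0.05 for MT-ND5 and -0.05 for MT-ND4. In the PRL libraries all 13 were again below 0, with a median of -0.28, and 11 were lower in 3 of 3 runs, beside 13% of all tested genes. None passed the adjusted test there either.

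**Figure D4:**
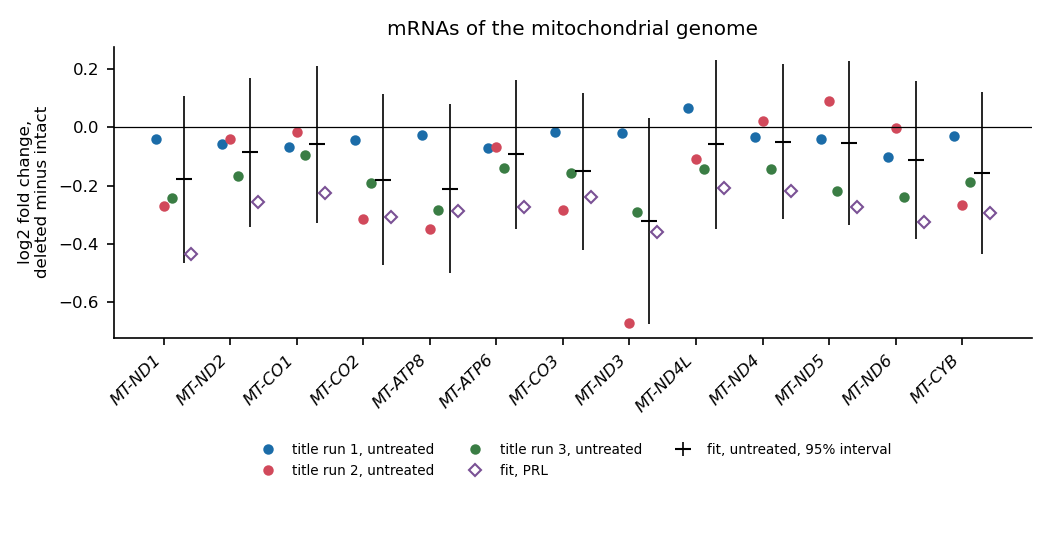
Log2 fold change, deleted minus intact, of the 13 mRNAs of the mitochondrial genome in the order of the genome. Coloured points are the ratios within title runs in untreated cells, black marks the fitted value with its 95% interval, and diamonds the fitted value in PRL cells. All 13 fitted values are below 0 and all 13 untreated intervals include 0.

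Nuclear genes of the respiratory chain were close to 0. Over 76 tested members the median was -0.03, with 8 higher and 22 lower in 3 of 3 runs. The complex I subunits NDUFS8 and NDUFS7 had -0.47 ± 0.20 and -0.38 ± 0.19, CYC1 of complex III -0.39 ± 0.18 and ATP5F1D of ATP synthase -0.42 ± 0.21. NDUFS8 was at 108, 244 and 154 CPM in intact and 99.2, 124 and 123.2 CPM in deleted libraries, with the intact library of run 2 the highest of the 6. In PRL cells the same list had a median of 0.11. Mitochondrial ribosome genes had a median of 0.01 over 70 members, with MRPL45 at 0.33 ± 0.13 and MRPL36 at 0.33 ± 0.14 above 0 and MRPL41 at -0.37 ± 0.15 and MRPL1 at -0.63 ± 0.26 below. Genes of mitochondrial gene expression and biogenesis had a median of 0.07 over 32 members. POLRMT, the mitochondrial RNA polymerase, had -0.35 ± 0.18, the RNA-binding factors FASTKD5 and LRPPRC 0.22 ± 0.14 and 0.18 ± 0.13, and MTERF3, a factor of mitochondrial ribosome assembly, 0.45 ± 0.27. Cytosolic ribosomal protein mRNAs took 7.12% ± 0.33 of the counts in intact and 7.25% ± 0.42 in deleted libraries (SD, n = 3), higher in the deleted library of 2 of 3 runs, and their median log2 fold change was 0.03 over 79 genes.

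No component of prolactin signalling was called by edgeR, DESeq2 or limma-voom. Over 53 tested members of the pathway the median was 0.09, with 17 higher and 4 lower in 3 of 3 runs and 0 called. GAB1, a docking protein between receptors and PI3K, was at 6.14, 2.65 and 4.86 CPM in intact and 8.47, 5.77 and 7.72 CPM in deleted libraries, a log2 fold change of 0.72 ± 0.19 (adjusted p = 0.815). VAV2, a guanine nucleotide exchange factor, had 0.27 ± 0.11, BTRC, a ubiquitin ligase subunit that acts on the receptor, 0.26 ± 0.13 and STAT5B 0.20 ± 0.10. The targets of JAK2-STAT5 had a median of -0.0048 over 19 members. PIM2, a survival kinase, had -0.35 ± 0.12, the cell cycle inhibitor CDKN1A -0.35 ± 0.15, the transcription factor CEBPB -0.25 ± 0.12 and SOCS2, a feedback inhibitor of cytokine receptors, 0.33 ± 0.17. The adjusted p was 0.815 for all 8.

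Markers of Ras-MAPK activity had a median of -0.09 over 30 members, 3 higher and 6 lower in 3 of 3 runs. The ERK-induced transcription factor ETV5 was at 22.6, 47.0 and 44.2 CPM against 17.5, 40.9 and 24.7 CPM (-0.48 ± 0.16), lower in each run. The cytokine LIF had -0.39 ± 0.17 and the feedback inhibitor SPRY4 -0.41 ± 0.19. Of the EGF ligands and ERBB receptors, with a median of -0.05 over 16 members, the receptors ERBB3 and EGFR were higher and the ligands AREG and NRG2 lower in 3 of 3 runs. EGFR had 0.29 ± 0.12 and NRG2 -0.43 ± 0.14, and none of the 4 was called by edgeR, while limma-voom called ERBB3.

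YAP and TAZ are coactivators that respond to cell density and stiffness. The list of their targets, which also holds pathway components, had a median of 0.18 over 25 members. In 3 of 3 runs 13 were higher (52%) and 1 lower (4%), beside 17.5% and 12.4% of all genes. At an unadjusted p under 0.05, 8 were higher (32%) and 0 lower, beside 2.97% and 2.13%. Without the run block 1 was higher. The groups did not overlap for 6 members higher and 0 lower, beside 3.58% and 1.91% of all genes. AMOTL1, a junction protein of the Hippo pathway, was at 68.2, 73.1 and 80.4 CPM in intact and 85.2, 104 and 100.4 CPM in deleted libraries and had 0.38 ± 0.12. TEAD1, the DNA-binding partner of YAP, had 0.35 ± 0.13, and the Hippo regulators WWC1 and AJUBA 0.61 ± 0.23 and 0.39 ± 0.15. In PRL cells the median of this list was 0.00. For WNT and Notch targets, a list that also holds ligands and antagonists, the median was 0.20 over 40 members. In 3 of 3 runs 15 were higher (37.5%) and 0 lower. At an unadjusted p under 0.05, 7 were higher (17.5%) and 0 lower, and 0 were higher without the run block. The Notch ligands JAG2 and JAG1 had 0.36 ± 0.11 and 0.41 ± 0.14, and the WNT antagonists SFRP1 and DKK3 0.60 ± 0.19 and 0.36 ± 0.12. SFRP1 was at 40.7, 52.2 and 107 CPM against 41.6, 113 and 160.0 CPM, with a log2 ratio of 0.03 in run 1. With no count filter edgeR called SFRP1 higher (adjusted p = 0.0303). PI3K-AKT-FOXO targets had a median of 0.15 over 33 members, with 5 higher (15.2%) and 1 lower (3.03%) at that unadjusted level. Among the members were IGF1R, the receptor of insulin-like growth factors (0.31 ± 0.11), PIK3IP1, a PI3K inhibitor (0.35 ± 0.14), and the ubiquitin ligase gene FBXO32 (0.25 ± 0.10). In edgeR's fit with the count filter, all genes named in this paragraph had an adjusted p of 0.815.

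Genes of G2-M and mitosis had the lowest median of the lists with 10 or more tested members, -0.21 over 50, with 0 higher and 21 lower in 3 of 3 runs (42%, beside 12.4% of all genes). At an unadjusted p under 0.05, 1 of 50 was lower (2%), beside 2.13% of all genes. PLK1, the mitotic kinase, was at 20.4, 81.4 and 26.3 CPM in intact and 14.4, 39.3 and 21.04 CPM in deleted libraries (-0.63 ± 0.38, adjusted p = 0.815). The intact library of run 2 was the highest of the 6, and the groups overlapped. UBE2C, a ubiquitin-conjugating enzyme of mitotic exit, had -0.67 ± 0.28, the kinase gene AURKB -0.51 ± 0.28 and the checkpoint gene BUB3 0.21 ± 0.12. With no count filter edgeR called PLK1 and UBE2C lower (adjusted p = 0.00871 and 0.00968). In PRL cells the list's median was 0.15, but the runs differed widely there, with 0.11, -0.66 and 1.19, and the average over untreated and PRL cells gave 0.02. Noncoding RNAs retained in the nucleus had a median of 0.15 over 23 members. MIR205HG, the host gene of a microRNA of basal epithelium, stood at 13.9, 50.4 and 64.9 CPM against 18.5, 122.5 and 127 CPM and had 0.92 ± 0.27 (adjusted p = 0.815). EdgeR called it higher with no count filter (adjusted p = 1.63e-06) and without title run 2 (0.0289). LINC00511, SNHG1 and GAS5 had 0.35 ± 0.12, 0.41 ± 0.16 and 0.27 ± 0.14. A further 18 lists, among them immediate early genes, hypoxia, interferon and p53 targets, had medians from -0.10 (metallothioneins and antioxidant genes) to 0.41 (milk proteins, with 8 tested members). Over their 566 tested members, 12 were higher and 18 lower at an unadjusted p under 0.05, and 0 were called by edgeR. Limma-voom called 1 of the milk proteins, LTF.

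**Figure D5:**
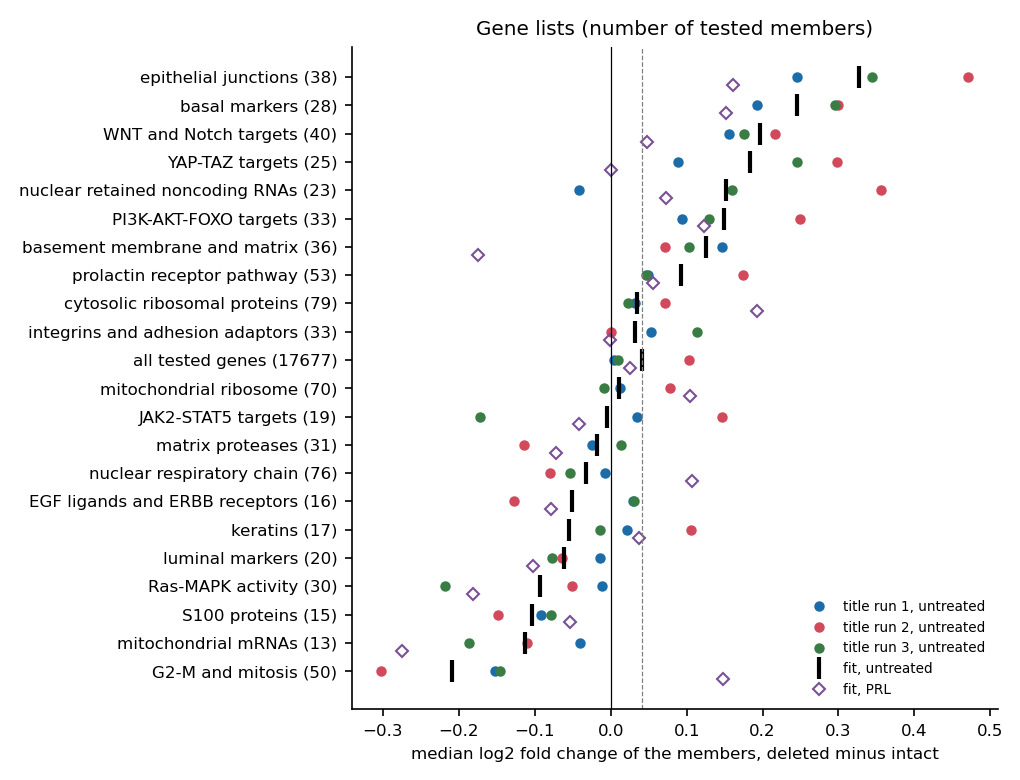
Median log2 fold change, deleted minus intact, of the tested members of 21 gene lists and of all tested genes (numbers of members in parentheses). Coloured points are the medians within title runs in untreated cells, bars the median of the fitted values and diamonds the same in PRL cells; the dashed line is the median of all tested genes, 0.04. The junction and basal lists have the highest fitted medians of those plotted, 0.33 and 0.25, and G2-M genes the lowest, -0.21. Of the lists not plotted, epidermal differentiation (17 tested members) had 0.31 and milk proteins (8) 0.41. In PRL cells the G2-M median is 0.15, from runs at 0.11, -0.66 and 1.19.

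The cells carried epithelial and basal markers in both groups. All 7 epithelial markers were measured, with a summed level of 1115 to 2050 CPM in intact and 1104 to 1658 CPM in deleted libraries, led by KRT8. The 7 basal markers summed to 3117 to 10438 CPM and 3834 to 13187 CPM. Luminal markers summed to 1136 to 2061 CPM and 1117 to 1596 CPM, with PGR at 0 in all 6 libraries. Fibroblast markers summed to 424 to 512 CPM and 434 to 577 CPM, most of it DCN and COL1A1. Over the 6 libraries PDGFRB was at 11.3 to 27.4 CPM and COL3A1 at 0.800 to 2.63 CPM. COL1A2 was at most 0.676 CPM, and PDGFRA and LUM at most 0.185 CPM. Endothelial markers summed to at most 2.23 CPM and leukocyte markers to at most 0.208 CPM. Adipocyte markers summed to 3.14 to 9.02 CPM and 2.18 to 9.90 CPM, all but a trace from PLIN1, with ADIPOQ at 0 in all 6. The basal sum was higher in the deleted library of each run and the luminal sum lower, at 1136, 2061 and 1632 CPM in the intact and 1117, 1368 and 1596 CPM in the deleted libraries of runs 1, 2 and 3. Single markers did not all follow their sum. The luminal sum was mostly KRT8 and KRT18, while FOXA1 was higher in the deleted library of runs 1 (1.74 against 2.65 CPM) and 2 (1.10 against 1.86) and lower in run 3. ITGB4, the largest basal marker, was higher in the deleted library of runs 1 and 3 but lower in run 2 (3827 against 2977 CPM). The part of the differences in these sums in the junction and basal results was not tested.

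The PRL-treated libraries measure the same change of receptor in samples that the untreated contrast does not use, although the shared fit and title runs tie them. In them 1 gene was called higher (0.00566%), EWSAT1, and 0 lower (0%), with 7.4% of genes at an unadjusted p under 0.05. Of the 525 genes higher in untreated cells at an unadjusted p under 0.05, 403 (76.8%) had the same sign in PRL cells, and of the 376 lower ones 332 (88.3%), against 65.1% of all tested genes. Junction genes had a median of 0.16 and basal genes 0.15 in PRL cells, where all genes had 0.02. There CDH1 had 0.79 ± 0.17, S100A14 0.83 ± 0.14, ESRP1 0.99 ± 0.17 and KRT14 0.55 ± 0.11, while FGF1 had 0.35 ± 0.25 and ERBB3 0.13 ± 0.14. The test of the difference between both deletion effects called 0 genes (0%) by edgeR, and 345 genes (1.95%) had an unadjusted p under 0.05. It also called 0 with DESeq2, with RLE scaling and without the run block.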

How the data were processed

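The deposited table holds read counts per gene for 12 libraries. Per the submitters' processing notes, the authors used FastQC, STAR 2.7.9a, featureCounts from Subread and the GRCh38 build; no source used here names the annotation release, the strand setting or any filter. Of 62703 entries, 1 had no values, and 62702 were used, of which 42299 had a symbol in the gene table. Genes were filtered with filterByExpr, scaled by TMM and fitted with edgeR 4.0.16 (glmQLFit, robust, and glmQLFTest, in R 4.3.3) over all 12 libraries with 4 group means and the title run as a block, which left 6 residual degrees of freedom. All groups share 1 estimate of the spread. P-values were adjusted over 17677 genes by Benjamini and Hochberg, with a threshold of 0.05. CPM are counts over TMM-scaled library sizes. On simulated data with these libraries' means and sizes, the fit recovered 28.36% of 67 genes changed 1.5-fold, 76.12% of 67 changed 2-fold and 96.97% of 66 changed 4-fold, with 12 calls among 16940 unchanged genes. The simulated counts followed the fitted spread of each gene, and the many planted changes ease the adjusted threshold. These shares need not hold for the real comparison, where GIMAP6 (log2 3.23) and ENSG00000287458 (-2.92) were not called.

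Groups came from the labels. Same-run untreated libraries had correlated deviations from their group means (r = 0.126, 0.183 and 0.420, over the 1000 most variable genes), against -0.261 to 0.0925 for other pairs, so the title run was taken to pair them. Over all 4 groups the separation was less clear. There 18 same-run pairs ran from -0.005 to 0.503, with 12 over 0.1, and 36 other pairs from -0.319 to 0.196, with 6 over 0.1. The labels do not explain the title run. Replicates differed by more than counting noise. The comparison and the gene lists were chosen with earlier results of these data known. Named genes are PRLR, the 10 smallest p in each direction among genes with a symbol, a mean of at least 1 CPM and no overlap between groups, for each list described the members of lowest p (at most 4), and the 13 mitochondrial mRNAs; others are said to be chosen after their values were seen, and 1 list member is not reported here. Coordinates are from GENCODE 29 and upstream sequences from RefSeq (GRCh38.p14). Alternatives covered scaling, filters, DESeq2 1.42.0, limma 3.58.1, the block, and leaving out libraries or title runs; the GC and length offset, the average over untreated and PRL cells, and list medians without single libraries were added after seeing the data.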

Additional observations from a re-analysis of the deposited data

How the results depend on the processing

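The count of genes called in untreated cells, 1 higher and 0 lower, depended on the method. It was 0 higher with the 6 untreated libraries and no replicate block, 24 higher and 13 lower with no count filter, 11 and 3 with DESeq2, and 13 and 4 with limma-voom. Without title run 1 or 3 it was 0 higher, and without title run 2 it was 4 and 3. It was 2 and 1 with the GC and length offset and 9 and 2 as the average over untreated and PRL cells. Leaving out single libraries gave 1 to 2 higher and 0 to 1 lower; the intact PRL library of run 2 gave 2 and 1, and the deleted untreated library of run 2 gave 1 lower. With all 12 libraries and no replicate block the count stayed 1 higher and 0 lower. In PRL cells DESeq2 called 8 higher and 3 lower, and leaving out single libraries gave 1 to 2 higher, with 2 without the intact PRL library of run 1. The cause of these shifts was not tested.

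Of 3374 pairs of a named gene and an alternative, 3363 kept the direction. With library size alone, which moves the median of all genes from 0.04 to 0.12, MT-CO1 turned to 0.0143, MT-ND4L to 0.0143, MT-ND5 to 0.0181 and MT-ND4 to 0.0214. Leaving out single libraries gave -0.146 to 0.00806 for MT-CO1, -0.157 to 0.0437 for MT-ND4L, -0.107 to 0.0373 for MT-ND5 and -0.104 to 0.0170 for MT-ND4, each above 0 without the deleted untreated library of run 3. PRLR turned to -0.0866 with the GC and length offset, MRPL1 to 0.0300 in the average over untreated and PRL cells, and LRPPRC to -0.0126 without title run 3. Of 44 lists, 21 kept the sign of their median in all alternatives of scaling, block and libraries left out (15 a list, 14 for mitochondrial mRNAs). That count leaves out DESeq2, limma-voom and the average over untreated and PRL cells; in the last the G2-M median was 0.02. In the simulation, with 3 libraries a group, 1.5-fold changes were mostly not detected. In the data some far larger changes were not called either, such as GIMAP6 at a log2 fold change of 3.23.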
